A study of Mus musculus with 4 samples.

Results

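The LPS response of macrophages lacking the microRNA miR-7 was compared, gene by gene, with the LPS response of wild-type macrophages. The cells were bone marrow-derived macrophages, which are grown out of progenitors in marrow, from C57BL/6 mice aged 8 to 10 weeks, which were wild-type (WT) or miR-7 deficient. Macrophages of both genotypes were kept without stimulus or treated with LPS at 100 ng/mL for 12 hours, and polyadenylated RNA was sequenced. Each of the 4 groups held 1 library, so no group has a measured spread between mice or cultures. How the deficiency was made, whether it is restricted to a cell type, whether marrow of several mice was pooled and the sex of the mice are not given in the labels used here. For each gene the LPS over unstimulated ratio of the deficient pair was divided by that of the WT pair, on counts scaled by TMM, a method that equalises library composition, with 0.5 counts added. The quantity is called the ratio of ratios and is given as log2. A value of 1 means that the LPS ratio was 2 times as large in deficient as in WT macrophages, and a value of -1 means the reverse. Of 52550 gene entries in the files, 13447 lay on an autosome and had 20 or more counts in at least 2 libraries. Of these, 7900 share no exonic base with another annotated gene and carry the results, and 5547 share exonic bases and are set apart, since reads there may belong to either gene.

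LPS, the bacterial outer-membrane lipid, binds the receptor TLR4 with its partners CD14 and MD-2. Signals through the adaptor MyD88 and the ubiquitin ligase TRAF6 free NF-kB from its inhibitors and raise transcription of cytokine and chemokine genes. Signals through the adaptor TRIF and TRAF3 activate IRF3, which induces interferon beta, and the interferon then induces a broad antiviral programme through STAT factors. In macrophages LPS also stabilises the oxygen-regulated factor HIF-1, which drives genes of glucose uptake, glycolysis and the hypoxic response. miR-7 is a short RNA that lowers transcripts whose 3′ untranslated regions pair with its seed, bases 2 to 8. A ratio of ratios joins 4 levels, and it equals the genotype ratio with LPS divided by the genotype ratio at rest, so a gene can stand apart because its resting level, its LPS level or both differ.

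The sequences the results turn on are the microRNA itself and, for the gene groups with the lowest and highest median, 250 bases before the start of 3 genes. The mature forms are from RefSeq (GRCm38.p6), with the seed in capitals, and both forms have the same seed.
mmu-miR-7a-5p: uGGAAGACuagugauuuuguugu
mmu-miR-7b-5p: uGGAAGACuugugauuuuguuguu
Promoters are from the RefSeq table of the same build, written along the gene's own strand. In those of P4ha2 (chr11:54100674-54100923, plus strand) and Egln3 (chr12:54203875-54204124, minus strand), capitals mark ACGTG, the core of the sites that HIF binds. In that of Isg15 (chr4:156200819-156201068, minus strand), capitals mark 3 overlapping matches of the core of the interferon-stimulated response element, GAAA, any 2 bases and GAAA in 1 run.
P4ha2: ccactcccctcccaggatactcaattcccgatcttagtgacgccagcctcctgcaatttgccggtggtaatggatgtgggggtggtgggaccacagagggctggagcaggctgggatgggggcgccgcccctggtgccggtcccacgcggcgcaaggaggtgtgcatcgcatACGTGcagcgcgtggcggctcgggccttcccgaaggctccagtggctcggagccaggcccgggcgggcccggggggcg
Egln3: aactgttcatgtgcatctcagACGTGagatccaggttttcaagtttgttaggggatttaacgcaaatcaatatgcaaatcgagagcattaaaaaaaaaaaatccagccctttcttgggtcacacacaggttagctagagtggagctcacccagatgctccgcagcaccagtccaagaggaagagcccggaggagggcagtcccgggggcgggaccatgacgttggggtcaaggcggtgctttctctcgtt
Isg15: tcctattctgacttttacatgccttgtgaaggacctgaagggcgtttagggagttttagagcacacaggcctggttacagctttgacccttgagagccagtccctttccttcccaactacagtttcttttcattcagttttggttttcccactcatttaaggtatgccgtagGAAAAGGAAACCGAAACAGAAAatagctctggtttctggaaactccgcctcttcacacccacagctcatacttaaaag
ACGTG or its reverse complement CACGT occurred in the 250 bases of 18.5% of all 27025 genes in the table and of 25.1% of the 5771 tested genes found there. The interferon core or its reverse complement (TTTC, any 2 bases and TTTC) occurred in 3.46% and 3.59%. A gene with several annotated starts has several windows and counted where any of them held a match. A match describes the letters in this window and does not show binding.

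Total counts were between 33937823 and 42074624, and 1 count was worth 0.0214 to 0.0302 CPM (TMM-scaled counts relative to library size). A library at 0 counts allows up to 3, which is 0.0642 to 0.0906 CPM. From here on, 4 values follow the order WT unstimulated, WT LPS, deficient unstimulated and deficient LPS, and the number after them, in brackets or after "with", is the log2 ratio of ratios. All 10 macrophage markers passed the count filter, and their summed level was 26234, 18563, 27125 and 19328 CPM. Of markers of other cells, Cd3d and Trac (T cells), Ncr1, Gzma and Klra8 (NK cells) and Elane, Ly6g and Retnlg (neutrophils) had at most 3 counts in every library. Other members of these lists were present: 3 of 8 T cell, 5 of 11 neutrophil and 0 of 7 NK cell markers passed the count filter. The NK list summed to between 0.133 and 0.856 CPM and the B cell list to 6.72, 0.121, 10.1 and 0.586 CPM. The B cell sum was lower with LPS in both genotypes, as was the neutrophil sum (926, 408, 769 and 214 CPM). The dendritic cell sum (39.0, 160.0, 45.1 and 325 CPM) and the stroma or fibroblast sum (2.61, 17.1, 2.37 and 20.2 CPM) were higher with LPS in both. In the dendritic cell list this came from Ccr7, at 4.41, 148, 4.07 and 315 CPM. The rest of that sum was lower with LPS in both genotypes. Markers called by the limit defined below were Itgam (1.21) and Fcgr1 (1.21), called higher, of the macrophage list, and, called lower, Itga2b (-3.2) and Ppbp (-2.1) of the megakaryocyte list, Mmp9 (-4.6) and Dcstamp (-1.34) of the osteoclast list and Clec9a (-2.09) of the dendritic cell list. The part of these markers in the results was not tested. Sums of the other lists ranged over the 4 libraries from 630.4 to 906 CPM (T cell), 3.36 to 11.5 (mast cell or basophil), 0 to 2.39 (erythroid), 16.0 to 22.4 (megakaryocyte), 321 to 453 (endothelium) and 375 to 559 (osteoclast). Bulk RNA cannot tell fewer cells of a type from less RNA per cell. The WT unstimulated library stood apart in 1 respect. In the 67 tested genes whose summed unstimulated level was under 2% of their summed LPS level (with 500 or more counts in each LPS library), the unstimulated level was a median 1.32% of the LPS level in WT cells (quartiles 1.12 to 1.72) and 0.509% in deficient cells (quartiles 0.303 to 1.05). The WT share was the larger in 60 of the 67 genes and was never under 0.526%. Genes of this set are also given below with a share of their LPS level subtracted from the unstimulated level. Where 3 values follow, they are in the order of 1.32% subtracted in WT cells, each genotype's own median share subtracted, and the lowest WT share (0.526%) subtracted in WT cells. Where a subtraction empties a library, the size of the value rests on the pseudocount.

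Most genes had similar LPS ratios in both genotypes. The ratio of ratios lay within 2-fold in 82.5% of the 7900 genes and within 1.5-fold in 64.9%, with a median log2 of -0.0042. A gene is called where the whole 95% interval for counting error lies beyond 2-fold. The interval covers the sampling of reads only, so a call compares these 4 libraries and not the conditions. There were 186 genes called higher (2.35% of those tested), with a larger LPS ratio in deficient cells, and 329 called lower (4.16%), so 6.52% were called in all. Among genes under 5 CPM on average 10.8% were called, against 5.06% at 5 to 50 CPM and 4.44% at 50 CPM or more. Just inside the limit lay Lsm6 (log2 1.35, nearer bound 1.0002) and Zfp93 (-1.87, nearer bound -1.0004). Just outside lay Tspan33 (5.12, nearer bound 0.998) and Srxn1 (-1.03, nearer bound -0.997). Of the 329 genes called lower, 113 stood 2-fold or more higher with LPS in WT cells only, 79 stood 2-fold or more lower with LPS in deficient cells only, 62 were higher with LPS in both and 22 went opposite ways. Of the 186 genes called higher, 68 stood 2-fold or more lower with LPS in WT cells only, 48 were higher with LPS in both, 24 lower in both, 22 higher in deficient cells only and 17 went opposite ways.

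**Figure D1:**
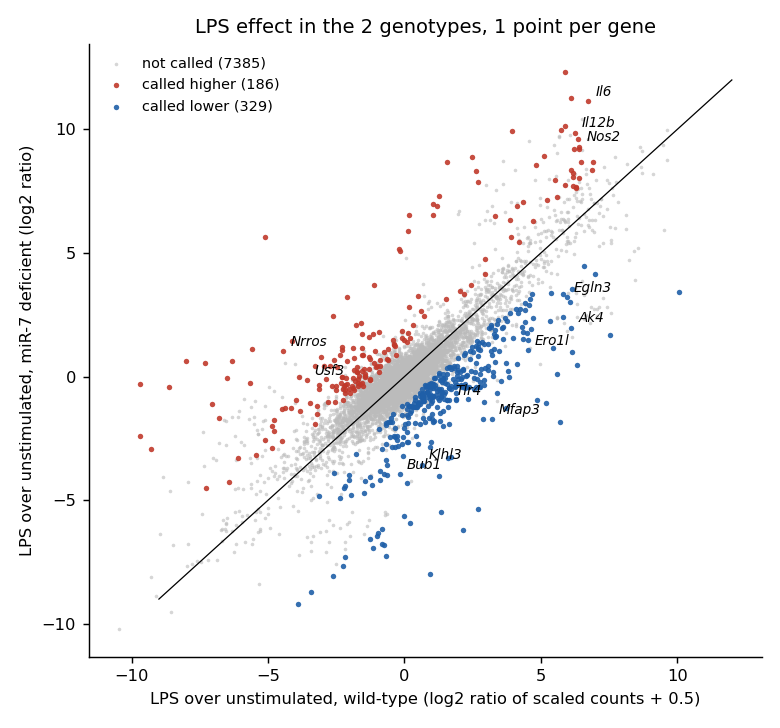
Log2 LPS over unstimulated ratio of WT macrophages (x axis) against that of deficient macrophages (y axis), 1 point per gene for the 7900 genes without shared exonic bases. Points on the line have equal ratios, the 186 genes called higher lie above it and the 329 called lower below it, and the position of points at the far edges can rest on libraries with 0 counts.

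Splitting each called gene into its genotype ratio at rest and with LPS showed where the difference arose. Of the 515 called genes, 231 differed between genotypes by 2-fold or more only in the LPS pair, 139 only in the unstimulated pair, 81 in both and 64 in neither. Genes called lower were 145 of the first kind and 89 of the second, and genes called higher were 86 and 50. The gene groups below separate along this line: the hypoxia-inducible genes differed with LPS, the interferon-stimulated genes at rest.

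**Figure D2:**
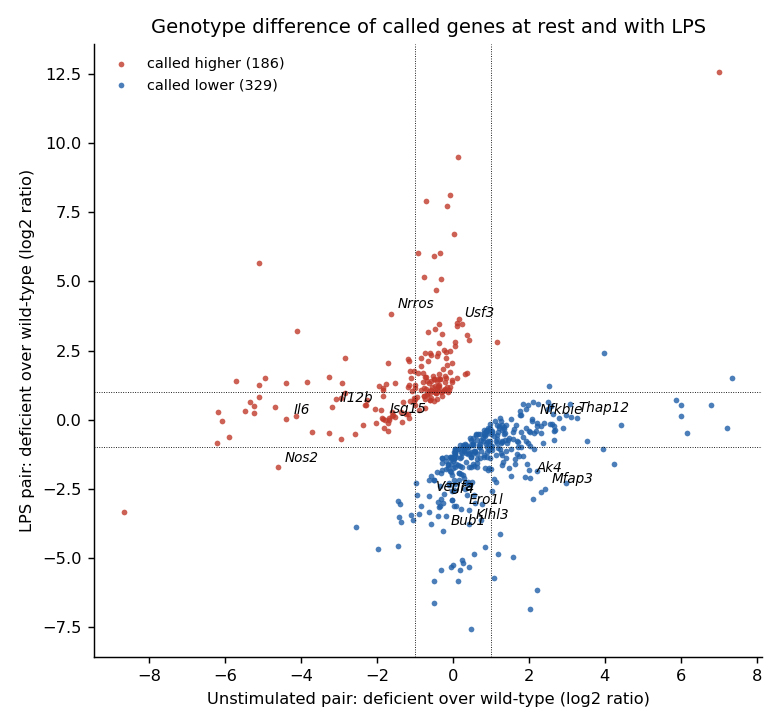
Log2 genotype ratio (deficient over WT) of the unstimulated pair (x axis) against that of the LPS pair (y axis) for the 515 called genes, with dotted lines at 2-fold. Genes called lower spread downwards (lower with LPS) and to the right (higher at rest), while genes called higher spread upwards and to the left.

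Hypoxia-inducible genes stood higher with LPS in WT macrophages and less so in deficient macrophages. Of the 20 tested members of the list, 14 were called lower and 0 higher, 70% against the 4.16% of all genes tested. The median log2 ratio of ratios was -1.58, against -0.0042 for all genes. The median log2 LPS ratio was 3.13 in WT and 1.16 in deficient cells. The genotype difference lay in the LPS pair, where the median log2 genotype ratio was -2.07, while it was -0.21 at rest. All 14 were also called under each of the 3 subtractions of a resting share, as were all 329 genes called lower. A subtraction from the WT unstimulated library alone cannot raise a ratio of ratios, so the kept calls are no added support.

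Ero1l, an oxidase that forms disulfide bonds in the endoplasmic reticulum, stood at 56.7, 1304, 65.9 and 138 CPM. The unstimulated libraries were close, and the WT LPS library stood alone. The LPS level was 23-fold the unstimulated level in WT cells and 2.09-fold in deficient cells, a log2 ratio of ratios of -3.46 (95% interval -3.55 to -3.37). Egln3, a prolyl hydroxylase that marks HIF for decay and is itself a HIF target, stood at 2.44, 151, 0.611 and 5.81 CPM, with -2.72 (95% interval -3.38 to -2.06). Its relative Egln1 stood at 34.6, 188, 35.2 and 41 CPM (-2.22), so that its deficient libraries hardly differed. Vegfa, which encodes the growth factor of blood vessels, stood at 24.3, 219, 15.6 and 31.9 CPM, with -2.14 (95% interval -2.31 to -1.97). In these 3 genes, as in Ero1l, the highest value was that of the WT LPS library.

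The collagen prolyl hydroxylases, needed for stable collagen, showed the pattern at unequal sizes. P4ha2, whose promoter is shown above, stood at 1.35, 54.8, 1.02 and 4.9 CPM, with -3.08 (95% interval -3.69 to -2.47). P4ha1 stood at 55.5, 507, 57.7 and 245 CPM, with -1.1 (95% interval -1.19 to -1.01), close enough to the limit that the call was lost with DESeq2 size factors and with total counts. Ak4, an adenylate kinase of mitochondria, stood at 1.05, 73.7, 4.3 and 17.1 CPM, the lowest value of the list at -4.13 (95% interval -4.61 to -3.66). Ak4 also differed at rest, where the deficient library was the higher one, as did Egln3, where the WT library was. Ddit4, an inhibitor of mTORC1, stood at 1.8, 38.6, 1.68 and 7.89 CPM (-2.19). Pdk1, the kinase that keeps pyruvate out of the TCA cycle, stood at 45.5, 81.4, 30.4 and 19.99 CPM (-1.45), higher with LPS in WT cells and lower with LPS in deficient cells. Kdm3a, a histone demethylase, stood at 38.3, 119, 39.8 and 51.7 CPM (-1.26), and Ier3, an early response gene, at 17, 317, 15.4 and 102 CPM (-1.49). Selenbp1, Slc2a3 and Stc2 were the other members called lower, at -2.72, -1.67 and -3.39. Of the 14, 10 differed between genotypes by 2-fold or more with LPS only and 3 in both pairs.

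The 6 tested members outside the call were Bnip3l, Mif, Pfkfb3, Pfkfb4, Ppfia4 and Adm. Pfkfb3, an activator of glycolysis, stood at 58.5, 500.1, 35.5 and 175 CPM (-0.79). Mif stood at 56, 182, 41.9 and 99.7 CPM (-0.45). Adm, which encodes adrenomedullin, had 0 counts in the deficient unstimulated library and 0.257, 33.2 and 1.68 CPM in the WT unstimulated, WT LPS and deficient LPS libraries, so its ratio is not fixed by the counts. The list median was -1.91 with that library set at 3 counts. Of the 11 members set apart for shared exonic bases, 8 were called lower, against 3.84% of such genes. They included Bnip3, a mitophagy receptor, at 13.2, 283, 13.6 and 38.1 CPM (-2.94), and Slc2a1, the main glucose carrier, at 113, 1134, 128 and 292 CPM (-2.13).

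**Figure D3:**
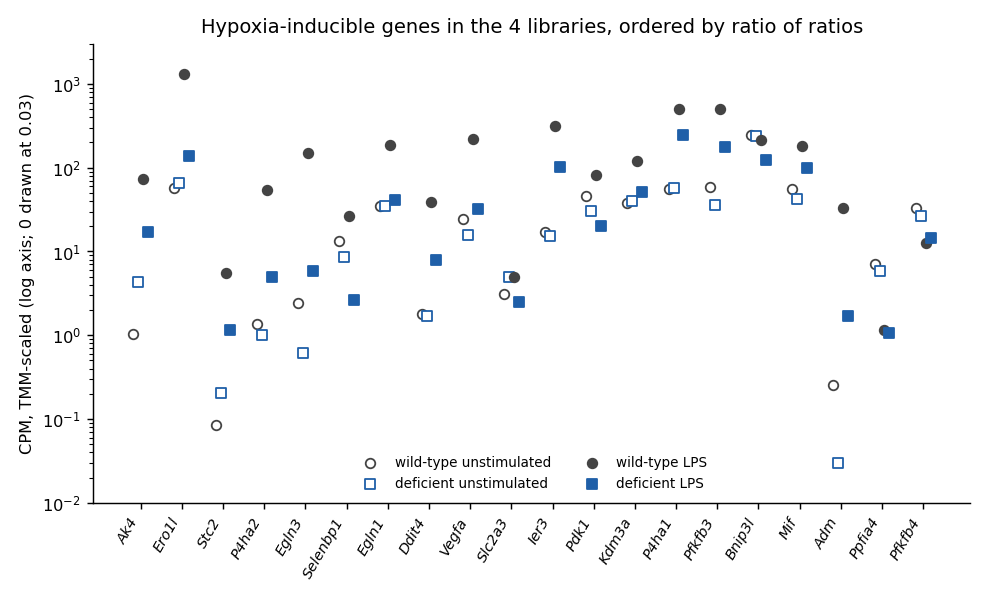
CPM on a log axis of the 20 tested hypoxia-inducible genes in the 4 libraries, ordered by ratio of ratios from lowest (left) to highest. For the 14 called genes, from Ak4 to P4ha1, the filled circle of the WT LPS library is the highest value, except Slc2a3, where the deficient unstimulated level was 4.99 CPM and the WT LPS level 4.95 CPM.

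Genes of glucose use leaned the same way with smaller differences. Of 12 tested members of the glycolysis list, 5 were called lower (41.7%, against 4.16% of all genes) and 0 higher (against 2.35%), all 5 through the LPS pair alone, and the median was -0.87. Hk2, the inducible hexokinase, stood at 81.2, 817, 73.5 and 271 CPM (-1.45). The lactate and pyruvate carrier Slc16a3 stood at 93.7, 715, 86 and 213 CPM, with -1.62 (95% interval -1.7 to -1.55), and Slc16a1, its relative, at 16.4, 22.6, 17.4 and 7.49 CPM (-1.67). Pygl and Gbe1, which break down and branch glycogen, were at -1.26 and -1.36. The abundant enzymes Eno1 and Ldha did not reach the limit. Eno1 stood at 590.2, 1680.2, 511 and 799 CPM, with -0.86 (95% interval -0.9 to -0.83), and Ldha at 577, 1657, 471 and 748 CPM, with -0.86 (95% interval -0.89 to -0.82). Both had LPS ratios of 2.85- and 2.87-fold in WT cells and 1.57- and 1.59-fold in deficient cells. Among members with shared exonic bases, Gys1, Tpi1 and Gpi1 were called lower at -2.58, -1.62 and -1.4.

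None of the 5 tested members of the list of HIF subunits and oxygen sensing was called. Egln3 and Egln1, described above, stand in the hypoxia list. Hif1a, set apart for shared exonic bases, stood at 81.8, 309, 116 and 335 CPM, with -0.39 (95% interval -0.46 to -0.31), and was somewhat higher in deficient cells both at rest and with LPS. Vhl, which targets HIF for decay, stood at 28.1, 89.4, 28 and 50.9 CPM (-0.81), Arnt, the partner subunit, at 38.2, 36.6, 35.7 and 37.3 CPM (0.13), and Epas1, which encodes HIF-2 alpha, at 21, 0.272, 23.7 and 1.01 CPM (1.68).

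ACGTG or CACGT lay in the 250 bases before an annotated start of 9 of the 12 hypoxia-list genes called lower in the promoter table. The same held for 11 of 17 tested members found there. It held for 31.8% of all genes called lower (78 of 245) and 24.6% of genes called higher, against 25.1% of tested genes. In Ak4 and Vegfa, counted among the 9, the match was absent from other annotated windows of the gene.

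Interferon-stimulated genes had the highest median of the 21 lists, and this difference lay in the resting libraries. Of 34 tested members, 11 were called higher (32.4%, against 2.35% of all genes) and 0 lower, and the median log2 ratio of ratios was 0.77. Of the 11, 10 differed between genotypes by 2-fold or more at rest only. The median log2 genotype ratio was -0.73 at rest and 0.12 with LPS, so the LPS levels were close while the unstimulated level was the higher one in WT cells.

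Isg15, a ubiquitin-like antiviral protein whose promoter is shown above, stood at 18.8, 1346, 5.14 and 1391 CPM, with 1.92 (95% interval 1.69 to 2.14). It stood at -2.2, 6.44 and 1.23 after the 3 subtractions, called lower in the first and higher in the others. Its LPS levels differed by little, and its unstimulated levels by 18.8 against 5.14 CPM. Rsad2, which encodes viperin, an enzyme that blocks viral RNA synthesis, stood at 120.2, 9423, 36.4 and 7153 CPM, with 1.33 (95% interval 1.24 to 1.41). It stood at -11.86, called lower, and at -0.4 and 0.56, not called. Gbp5, a guanylate-binding protein, stood at 19.2, 1626, 7.38 and 1958 CPM (1.64), and Cmpk2, a nucleotide kinase next to Rsad2, at 32.7, 2395, 16.2 and 3439 CPM (1.53). In all 4 genes the WT unstimulated library was above the deficient one as deposited. After the subtractions Gbp5 stood at -8.9, called lower, and at 0.27 and 0.79, not called. Cmpk2 stood at -3.28, called lower, at 7.03, called higher, and at 0.83, not called. Ifit1bl1, Isg20, Ifi44, Iigp1 and Zbp1 were called at 1.25 to 1.91. Of these, Ifit1bl1, Ifi44 and Iigp1 were called lower after the first subtraction and not called after the others, and Isg20 was not called after the first. Zbp1 was not called higher after any of the 3. Apol9a and Apol9b, near-identical copies between which reads can be misassigned, had 0 counts in the deficient unstimulated library. On the counts as deposited, with 3 counts there, their LPS ratios were 5.83-fold and 14.5-fold higher in deficient than in WT cells. The nearer bounds of their intervals were 2.15-fold and 5.37-fold. These values rest on the counts before any subtraction. Apol9a stood at 1.88, 1.88 and 4.47 after them and was not called in any, nor with a pseudocount of 5 or after thinning. Apol9b stood at 4.26, 4.26 and 5.89 and was called in the last only. Ifit2, an RNA-binding antiviral protein, stood at 48.3, 4343, 31.2 and 4197 CPM (0.58) and was not called. It was called lower after the first 2 subtractions, at -11.29 and -9.62, and not after the last, at -0.34.

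Resting levels this low were measured beside the share described above. All of the 67 strongly LPS-induced genes had WT unstimulated counts above 0. Of them, 26 were among the genes called higher and 0 among those called lower, with a median ratio of ratios of 1.20. Over all 7900 genes tested, 2.35% were called higher and 4.16% lower. The set was picked from these same levels, so its values depend on the 2% limit. A limit of 5% gave 118 genes, 30 called higher and 3 lower, with a median of 0.77. A limit of 1% gave 36 genes, 20 called higher and 0 lower, with a median of 1.51. When 1.32% of the WT LPS level was subtracted from the WT unstimulated library, 0 of 34 interferon-stimulated genes were called higher and 15 were called lower. Of all 7900 genes, 151 were then called higher and 409 lower. When each genotype's own median share was subtracted, 3 were called higher and 5 lower, against 167 and 380 of all genes. When the lowest WT share, 0.526%, was subtracted, 3 were called higher and 0 lower, against 168 and 345 of all genes. A subtraction from the WT unstimulated library alone cannot raise a ratio of ratios. The count of interferon genes called in each direction thus changed with the share subtracted. The interferon core, on either strand, was present in the 250 bases before the start of 6 of the 9 called genes of this list in the promoter table and of 18 of 28 tested members, against 3.59% of tested genes and 10.9% (15 of 138) of all genes called higher.

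**Figure D4:**
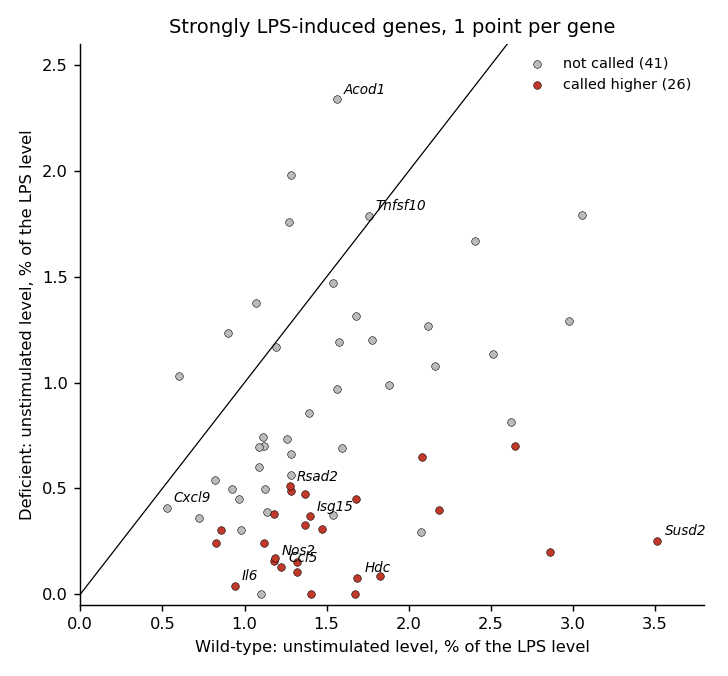
Unstimulated level as a percentage of the LPS level in WT (x axis) and deficient macrophages (y axis) for the 67 strongly LPS-induced genes, 1 point per gene, with a line of equality. In 60 genes the WT share is the larger, no WT value lies under 0.526%, and the 26 genes called higher lie below the line, as a call higher requires.

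Cytokine genes were called in both directions. Of 18 tested members, 3 were called higher (16.7%, against 2.35% of all genes) and 4 lower (22.2%, against 4.16%). Il6, a pyrogenic cytokine, stood at 3.47, 369, 0.153 and 373 CPM. The LPS levels were nearly equal, and the unstimulated counts were 162 in WT and 6 in deficient cells, which gave 4.41 (95% interval 3.28 to 5.54). Il12b, the shared subunit of IL-12 and IL-23, stood at 32.3, 2452, 3.57 and 3323 CPM, with 3.61 (95% interval 3.37 to 3.86), and Il12a, its IL-12 partner, at 0.856, 46.9, 0.102 and 116 CPM, with 4.23 (95% interval 2.82 to 5.64). Of these 3, Il12a was also 2-fold or more higher in deficient cells with LPS. Il1b, set apart for shared exonic bases, stood at 73.1, 5575, 13 and 5397 CPM, with 2.45 (95% interval 2.31 to 2.58). After the 3 subtractions Il6 stood at -3.67 and 0.017, not called, and at 3.23, called higher. Il12b stood at -7.68, called lower, at 0.44, not called, and at 2.88, called higher. Il1b stood at -10.03, called lower, at -0.047, not called, and at 1.71, called higher. Il12a stood at 2.42, not called, and at 5.58 and 3.73, called higher.

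Tnf and the inhibitory cytokines gave another picture. Tnf, the early cytokine of LPS shock, stood at 19.8, 558, 42.4 and 992 CPM, with -0.27 (95% interval -0.39 to -0.15). It was higher in deficient cells at rest and with LPS alike (log2 genotype ratios 1.10 and 0.83), so its LPS ratio differed little. Il1rn, the antagonist of the IL-1 receptor, stood at 43.2, 1284, 58.1 and 905 CPM (-0.93), and it was called lower after each of the 3 subtractions, at -1.65, -1.53 and -1.18. Il10, the anti-inflammatory cytokine, had 20, 654, 0 and 315 counts. With 3 counts in the empty deficient unstimulated library its LPS ratio in deficient cells was 2.38-fold higher than in WT cells. Its log2 ratio of ratios was 3.87 (95% interval -0.19 to 7.92), so the counts do not fix its direction and it was not called. After the 3 subtractions it stood at 2.6, 2.6 and 3.46, not called in any. Those called lower were Il33, an alarmin, Tnfsf15, Gdf15 and Il1f9. Tnfsf15, a TNF family ligand, stood at 3.72, 211, 17.3 and 177 CPM (-2.47), and Gdf15, a stress cytokine, at 8.88, 14, 3.26 and 1.79 CPM (-1.51). Il33 had 0, 454, 36 and 371 counts. With 3 counts in the WT unstimulated library its LPS ratio was 19.8-fold lower in deficient than in WT cells (nearer interval bound 6.13-fold). Il33 thus had no count in the WT unstimulated library, unlike the 67 genes above.

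Among 21 tested chemokines 1 was called higher (4.76%, against 2.35% of all genes) and 3 lower (14.3%, against 4.16%). Ccl5, which attracts T cells and monocytes, stood at 65, 5304, 4.94 and 3907 CPM, with 3.27 (95% interval 3.06 to 3.48). It moved to -9.03 with 1.32% of the WT LPS level subtracted, to -0.44, not called, with each genotype's share subtracted, and to 2.46 with the lowest WT share subtracted. Ccl9, a macrophage chemokine, stood at 645, 1329, 630.4 and 507 CPM (-1.36). Its WT LPS level was the highest of the 4 and its deficient LPS level the lowest. Ccl24, an eosinophil chemokine, stood at 0.385, 2.48, 0.509 and 0.48 CPM, with -2.73 (95% interval -3.89 to -1.57), and Ppbp, a platelet-type chemokine, at 0.642, 1.54, 3.92 and 2.16 CPM (-2.1). Ccl6, the most abundant member, stood at 2386, 2866, 2500.0 and 2717 CPM (-0.14).

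The receptor of LPS was itself among the genes called lower. Of 17 tested members of the TLR pathway, 3 were called lower (17.6%, against 4.16% of all genes) and 1 higher (5.88%, against 2.35%). All 4 were called through the LPS pair. Tlr4 stood at 14.5, 44.5, 11.8 and 6.08 CPM, with -2.57 (95% interval -2.83 to -2.3). Its level was 3.06-fold higher with LPS in WT cells and 1.93-fold lower with LPS in deficient cells. Traf3, which links TLR4 to IRF3, stood at 14, 74.6, 20.7 and 33.4 CPM, with -1.73 (95% interval -1.9 to -1.55), and Traf6, the ubiquitin ligase downstream of MyD88, at 40.8, 226, 42.2 and 97.9 CPM (-1.26). In both, as in Tlr4, the WT LPS library was the highest. Tlr9, a receptor for bacterial DNA, was called higher at 19.3, 9.73, 20.9 and 27.7 CPM (1.4). Cd14 stood at 97.8, 909, 89.7 and 969.8 CPM (0.22), and Tlr2, a receptor for lipoproteins, at 60.9, 703, 159 and 1031 CPM (-0.83).

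Of 20 tested NF-kB subunits and feedback genes, 3 were called lower (15%, against 4.16% of all genes), 1 higher (5%, against 2.35%) and 16 were not called. The median was -0.43, and the 3 called lower differed in the resting pair. Nfkbia, which encodes the inhibitor IkB alpha, stood at 35.1, 472, 100.5 and 478 CPM (-1.5), Nfkbie, which encodes IkB epsilon, at 13.1, 160.5, 55.9 and 161 CPM, with -2.09 (95% interval -2.23 to -1.95), and Tnip3, a partner of A20, at 46.2, 136, 107 and 115 CPM (-1.45). In these 3 genes the deficient unstimulated level was over 2 times the WT unstimulated level while the LPS levels were close, the mirror image of the interferon genes. Tnfaip3, which encodes A20, stood at 45, 864, 66.2 and 849 CPM (-0.58), and Atf3, a repressor of cytokine genes, at 373, 831, 376 and 527 CPM (-0.67). Dusp2, a phosphatase of MAP kinases, was called higher at 3.17, 1.12, 3 and 3.71 CPM (1.79).

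Of 27 tested inflammatory effectors, 5 were called higher (18.5%, against 2.35% of all genes) and 4 lower (14.8%, against 4.16%). Nos2, the inducible nitric oxide synthase, stood at 93.1, 7886, 3.77 and 2389 CPM. The WT values were above the deficient ones in both pairs (log2 genotype ratios -4.62 at rest and -1.72 with LPS), and the larger gap at rest gave a ratio of ratios of 2.9 (95% interval 2.66 to 3.14). Ptgs2, which encodes cyclooxygenase-2, stood at 31.1, 2623, 3.23 and 1893 CPM, with 2.79 (95% interval 2.53 to 3.05), and Hdc, the enzyme that makes histamine, at 1.99, 118, 0.102 and 130.1 CPM, with 4.27 (95% interval 2.9 to 5.63). Lcn2, which binds bacterial siderophores, and Marco, a scavenger receptor, were called at 1.6 and 1.68. With 1.32% of the WT LPS level subtracted, 0 effectors were called higher and 9 lower, with Nos2 at -9.92 and Ptgs2 at -8.45. Of all 7900 genes, 151 were called higher and 409 lower at that setting. With the lowest WT share subtracted, 3 effectors were called higher and 7 lower, with Nos2 at 2.05 and Ptgs2 at 1.95. Of all genes, 168 were then called higher and 345 lower. With each genotype's own share subtracted Nos2 (-1.72) and Ptgs2 (-0.47) were not called. Hdc stood at 2.08, not called, and at 5.24 and 3.73, called higher, after the 3 subtractions, and Marco at 0.24, not called, 2.45, called higher, and 1.26, not called. Lcn2 was not called higher after the first or the last subtraction. Acod1, the enzyme of itaconate synthesis, stood at 179, 11488, 263 and 11237 CPM (-0.58), not called, and was called lower after each of the 3 subtractions, at -3.27, -2.91 and -1.18.

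The effectors called lower were proteases of the matrix and genes of clotting and arginine use. Mmp9, a gelatinase, stood at 0.257, 1.96, 5.78 and 1.73 CPM, with -4.6 (95% interval -5.56 to -3.65). F3, tissue factor, the starter of coagulation, stood at 2.65, 20.2, 9.88 and 4.82 CPM, with -3.96 (95% interval -4.33 to -3.58). Both were higher with LPS in WT cells and lower with LPS in deficient cells, and in both the deficient unstimulated level was above the WT one. Mmp13, a collagenase, stood at 235, 2000.0, 192 and 754 CPM (-1.12), and Ass1, which regenerates arginine from citrulline, at 171, 1806, 312 and 1357 CPM (-1.28). Arg1, which splits arginine, had 48, 377, 0 and 4 counts, so it was low in both deficient libraries and its ratio of ratios is not fixed by these counts.

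Over all 7900 genes, the naming rule picked 14 genes in each direction by the interval bound nearest 0, among genes with 4 or more counts in every library and 5 CPM in at least 1. The highest was Nrros on chromosome 16, which encodes a regulator of reactive oxygen species in phagocytes. It stood at 261, 12, 83.9 and 170.4 CPM, with 5.47 (95% interval 5.31 to 5.63), 21.8-fold lower with LPS in WT cells and 2.03-fold higher with LPS in deficient cells. The WT LPS library stood alone as the low one. Osgin1 on chromosome 8, a target of NRF2, stood at 13.4, 4.44, 4.13 and 18.6 CPM, with 3.76 (95% interval 3.41 to 4.12), and likewise went opposite ways in the 2 genotypes. Usf3, a transcription factor on chromosome 16, stood at 41.9, 3.53, 44.7 and 40.4 CPM, with 3.42 (95% interval 3.13 to 3.7). Nlrp1b, an inflammasome sensor on chromosome 11, stood at 18.5, 1.27, 14.4 and 14.2 CPM, with 3.83 (95% interval 3.36 to 4.31). In both, LPS levels in deficient cells stayed near the unstimulated ones while the WT LPS level was over 10 times lower. E2f2, an activator of cell-cycle genes, stood at 22.2, 0.785, 14.5 and 4.26 CPM, with 3.03 (95% interval 2.42 to 3.64). Lad1, which encodes a basement membrane protein, stood at 1.71, 59.9, 0.229 and 116 CPM (3.79). Susd2, which encodes a membrane protein, stood at 1.84, 52.4, 0.229 and 90.6 CPM (3.73). These 2 genes were high with LPS in both genotypes and differed most at rest, and with 1.32% of the WT LPS level subtracted they stood at 2.9 and 3.06. The other 7 of these 14 genes, Il12b, Il6, Ccl5, Hdc, Il12a, Nos2 and Ptgs2, are described above.

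The lowest was Mfap3 on chromosome 11, which encodes a microfibril-associated protein. It stood at 9.86, 90.6, 52.6 and 16 CPM, with -4.91 (95% interval -5.1 to -4.72), 9.18-fold higher with LPS in WT cells and 3.28-fold lower with LPS in deficient cells. The deficient unstimulated level was above the WT one and the deficient LPS level below it. Klhl3, a substrate adaptor of the cullin 3 ubiquitin ligase on chromosome 13, stood at 5.73, 8.94, 7.66 and 0.64 CPM, with -4.2 (95% interval -4.84 to -3.56), and its deficient LPS library stood alone as the low one. Pgf, placental growth factor of the VEGF family, stood at 0.963, 11.2, 1.3 and 1.15 CPM, with -3.7 (95% interval -4.43 to -2.97). Rgcc, a regulator of the cell cycle, stood at 4.3, 41.2, 5.55 and 6.26 CPM, with -3.08 (95% interval -3.42 to -2.74), and Rtn4rl2, a Nogo receptor homologue, at 1.11, 19.7, 2.29 and 3.28 CPM, with -3.61 (95% interval -4.18 to -3.05). In these 3 genes the WT LPS library was the high one and the other 3 libraries lay low.

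In Thap12 and Zfp931 the deficient unstimulated library was the highest. Thap12 stood at 4.17, 25.9, 36.4 and 27.3 CPM, with -3.04 (95% interval -3.29 to -2.79), and its WT unstimulated library stood apart as the low one. Crk, an adaptor between receptors and small GTPases, stood at 31.7, 119, 79.5 and 41.1 CPM, with -2.86 (95% interval -2.98 to -2.73), high in the WT LPS and the deficient unstimulated libraries. Zfp931, a zinc finger gene, stood at 0.792, 2.11, 5.07 and 1.25 CPM, with -3.41 (95% interval -4.14 to -2.68). Zfp931 went opposite ways with LPS in the 2 genotypes, as Crk nearly did, at 3.75-fold higher in WT and 1.93-fold lower in deficient cells. The rule also picked Ak4, Ero1l, Mmp9, F3 and Bub1.

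Genes with 3 or fewer counts in a library gave 34 of the 186 genes called higher and 31 of the 329 called lower, and a bound is given where a library held 0. Fat3, an atypical cadherin, had 498, 0, 24 and 4 counts, and with 3 counts in the WT LPS library its LPS ratio was at least 20.5-fold higher in deficient than in WT cells. Ddx4, a germ cell RNA helicase, had 31, 66, 0 and 196 counts, at least 22.8-fold higher. Cd300ld4, a membrane receptor of myeloid cells, had 374, 0, 247 and 31 counts, at least 11.6-fold higher. Clec4b1, a C-type lectin, had 301, 14, 300 and 0 counts, at least 6.27-fold lower in deficient cells. Il1rl1, the receptor of IL-33, had 36, 49, 126 and 0 counts, at least 77.1-fold lower. In Clec4b1 and Il1rl1 the empty library was the deficient LPS one.

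Cell-cycle genes stood lower with LPS in both genotypes, at median log2 LPS ratios of -1.35 and -1.0 for DNA replication and -2.97 and -3.29 for mitosis (WT and deficient). DNA replication genes had a median ratio of ratios of 0.50, and all 20 tested members were above 0. Of these, 1 was called higher (5%, against 2.35% of all genes) and 0 lower (against 4.16%). Rrm2, a subunit of ribonucleotide reductase, stood at 34.7, 0.393, 20.1 and 1.04 CPM, with 2.17 (95% interval 1.27 to 3.07). Mcm6, a subunit of the replicative helicase, stood at 67.7, 40.6, 33.7 and 28.7 CPM (0.5), and Pcna, the sliding clamp, at 383, 171, 255 and 142 CPM (0.32). Both were lower in deficient than in WT cells at rest, and the list's median log2 genotype ratio was -0.51 at rest and 0.18 with LPS. Of 21 tested mitosis genes, 4 were called lower (19.05%, against 4.16% of all genes) and 1 higher (4.76%, against 2.35%). All 5 were called through the LPS pair alone. Bub1, a kinase of the spindle checkpoint, stood at 6.59, 5.83, 5.53 and 0.347 CPM, with -3.77 (95% interval -4.6 to -2.94). Its deficient LPS library was the low one. Bub1b and Cenpa, of the same checkpoint and the centromere, were at -2.29 and -1.68. Ccnb2, a mitotic cyclin, had 248, 16, 210 and 0 counts. With 3 counts in the deficient LPS library its LPS ratio was 6.09-fold lower in deficient cells (nearer interval bound 2.32-fold). The call of Ccnb2 was lost with total counts, with a pseudocount of 5 and after thinning. Ect2, needed for cytokinesis, was called higher at 5.18, 0.453, 4.53 and 2.19 CPM (2.43). Mki67 stood at 65.6, 176, 69.7 and 199.8 CPM (0.09) and Tpx2 at 16.6, 42.7, 18.7 and 34.6 CPM (-0.47), both above their unstimulated levels in both genotypes.

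Stress response genes were called in both directions, few in each. Of 17 tested antioxidant genes, 1 was called higher (5.88%, against 2.35% of all genes) and 1 lower (5.88%, against 4.16%). These were Osgin1, described above, and Slc7a11, the cystine carrier, lower at 138, 1701, 351 and 1427 CPM (-1.6). Prdx1, an abundant peroxiredoxin, stood at 2558, 12629.6, 2691 and 7442 CPM (-0.84), and Fth1, the heavy chain of ferritin, at 12719.8, 24550.1, 12398 and 25016 CPM (0.06). Of 22 genes of the unfolded protein and integrated stress responses, 2 were called lower (9.09%, against 4.16% of all genes), through the LPS pair. In the same list 1 was called higher (4.55%, against 2.35%). Trib3, a target of ATF4, stood at 3.77, 21.8, 3.08 and 6.21 CPM (-1.52), and Sesn2, a leucine sensor, at 12.6, 30.8, 12.7 and 11.6 CPM (-1.42). Sdf2l1, a cofactor of the chaperone BiP, stood at 109.8, 45.9, 66.3 and 60.7 CPM (1.13), and Hspa5, which encodes BiP, at 821, 658, 522 and 495 CPM (0.24).

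Genes of macrophage identity and activation state were mostly within 2-fold. Of 25 tested identity genes 1 was called higher (4%, against 2.35% of all genes) and 0 lower (against 4.16%). The called gene was Fcgr1, the high-affinity antibody receptor, at 52.7, 404, 23.7 and 422 CPM, with 1.21 (95% interval 1.1 to 1.33). Its WT unstimulated level was above the deficient one and its LPS levels were close, and its call was lost with 1.32% of the WT LPS level subtracted (1.06). Lyz2, lysozyme, stood at 17688, 8678, 18577 and 10293 CPM (0.18), and Gpnmb, a membrane glycoprotein, at 25426, 14018, 20654 and 13302 CPM (0.22). Of 16 tested genes of alternative activation, Mgl2, Ccl24 and Il1rl1 were called lower (18.8%, against 4.16% of all genes) and 0 higher. Mgl2, a galactose-binding lectin, stood at 47.3, 52.6, 24.1 and 10.6 CPM (-1.34). Chil3, a chitinase-like protein, stood at 2584, 2331, 727 and 464 CPM, lower in deficient cells in both pairs, and its ratio of ratios was -0.5. Of 13 tested antigen presentation genes, Cd40 and Icosl, which act in contacts with T cells, were called higher (15.4%, against 2.35% of all genes) and 0 lower. Cd40 stood at 8.64, 588, 2.32 and 756 CPM, with 2.25 (95% interval 1.93 to 2.58), and moved to -1.03 with 1.32% of the WT LPS level subtracted and to 1.61 with the lowest WT share, called in the latter only. With each genotype's own share subtracted it stood at 6.47, called higher. Icosl stood at 4.66, 36.4, 3.69 and 100.4 CPM, with 1.8 (95% interval 1.48 to 2.11), and differed in the LPS pair. B2m, the invariant chain of MHC class I, stood at 3342, 6664, 3176 and 6209 CPM (-0.03).

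Among genes without shared exonic bases, no member was called in the lists of TCA cycle and oxidative phosphorylation (19 tested), cholesterol synthesis (14), LXR targets and lipid handling (15), lysosome (16), HIF subunits and oxygen sensing (5) and reported miR-7 targets (16). Cs, citrate synthase, stood at 241, 327, 205 and 340.0 CPM (0.28), and Psap, the precursor of the saposins, at 19085, 13208, 17330.1 and 12893 CPM (0.1). Abca1, the cholesterol exporter, came close to a call, at 199.7, 557, 409 and 561 CPM with -1.02 (95% interval -1.07 to -0.98). Its unstimulated level was higher in deficient cells, and its LPS levels were nearly equal. It was called lower at -1.08 and -1.07 after the first 2 subtractions. Scd2, a fatty acid desaturase of the LXR list that shares exonic bases with another gene, was called lower at 705, 670.4, 754 and 303 CPM (-1.24).

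**Figure D5:**
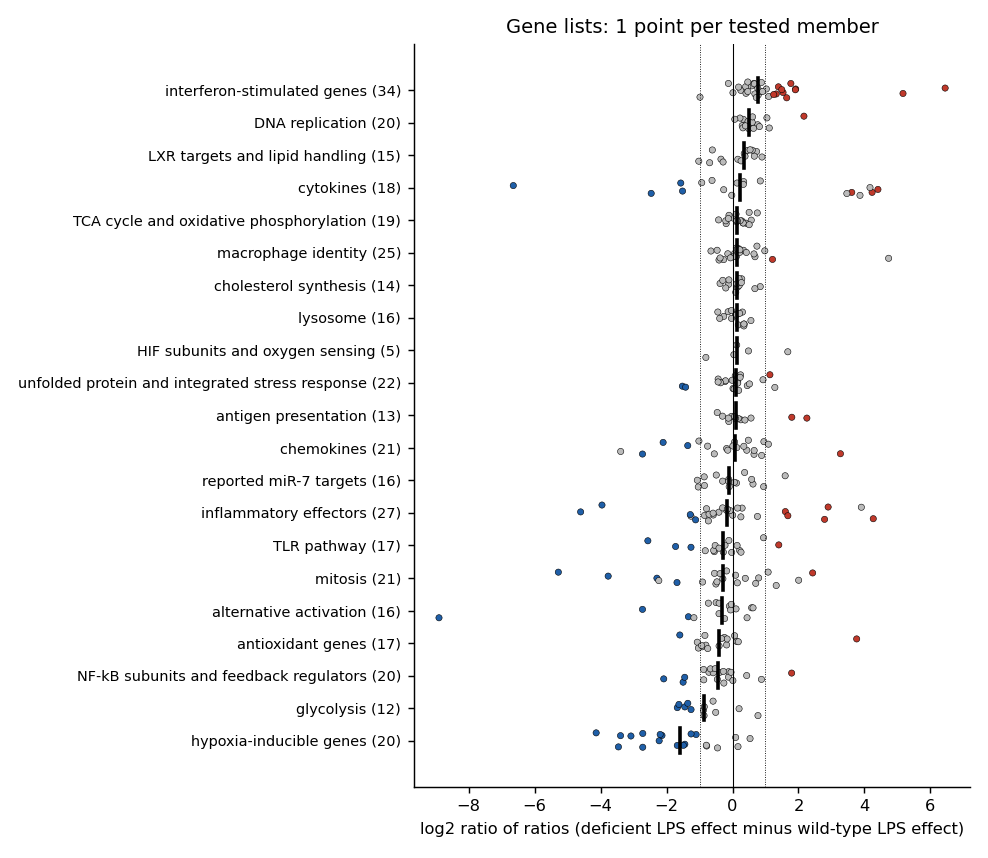
Log2 ratio of ratios of every tested member of the 21 gene lists, 1 point per gene and the number tested in brackets, with a black bar at the list's median, red for genes called higher and blue for genes called lower. The hypoxia-inducible list has the lowest median at -1.58 and the interferon-stimulated list the highest at 0.77, and dotted lines mark 2-fold.

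Genes with and without miR-7 seed matches had similar medians. Of the tested genes with an annotated 3′ untranslated region, 1046 held a match to bases 2 to 8 of the seed, GTCTTCC in the transcript, in their longest such region. Their median log2 ratio of ratios was -0.048, against 0.0058 in the 6005 without one. Of genes with a match 2.49% were called higher and 4.68% lower, and of genes without one 2.31% and 3.95%. Genes with a match had longer regions, a median of 2418 against 1178 bases. The 16 tested genes reported as miR-7 targets had a median of -0.11. Egfr, a growth factor receptor among them, stood at 2.91, 6.19, 4.05 and 4.1 CPM, with -1.07 (95% interval -1.51 to -0.62). Pik3cd, a lipid kinase subunit of leukocytes, stood at 208, 199.6, 157 and 232 CPM (0.62).

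Genes that share exonic bases with another gene gave similar shares, with 152 of 5547 called higher (2.74%) and 213 lower (3.84%), 6.58% in all. Rnd2, which encodes a small GTPase-like protein, stood at 98, 2.33, 4.46 and 52 CPM, with 8.93 (95% interval 8.54 to 9.32). Sla2, which encodes an adaptor of lymphocyte receptors, stood at 26.7, 0.151, 22.3 and 47.6 CPM, with 8.44 (95% interval 7.22 to 9.65), and Lrrc8d, a volume-regulated anion channel subunit, at 154, 16.4, 10.6 and 159 CPM, with 7.14 (95% interval 6.95 to 7.33). Their WT LPS library was lower than the WT unstimulated one and their deficient LPS library higher than the deficient unstimulated one. Those the naming rule picked among the genes called lower were Tnc, which encodes the matrix protein tenascin-C, at 0.407, 20.3, 4.02 and 6.74 CPM (-4.85), Pagr1a, a cofactor of histone methylation, at 7.08, 10.2, 5.81 and 0.4 CPM (-4.34), and Edn1, which encodes endothelin-1, at 0.492, 13.1, 6.75 and 10.9 CPM (-4.01). Reads from the overlapping partner cannot be told apart in these genes.

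A model of the 4 libraries with LPS and the genotype by LPS term, in which the genotype difference common to both pairs counted as spread, gave 0 genes at an adjusted p under 0.05 in edgeR's quasi-likelihood test with Benjamini-Hochberg adjustment over 13911 genes. The smallest adjusted p was 1.0. At an unadjusted p under 0.05 there were 117 genes, and 97 of these were called by the counting interval. With genotype in the model as well, no residual degree of freedom was left and no test can be made.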

How the data were processed

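Polyadenylated RNA of 4 samples, 1 per group, was sequenced on a HiSeq 2000. Per the series design text, base calling used Casava 1.8.2, reads were trimmed with Cutadapt and aligned with TopHat 2.0.13 and Bowtie2, and exon annotation came from Partek. The submitters' processing notes name HTSeq and mm8. Whether counting used strand or multiply placed reads, and with which annotation release, is not given in the sources that were used. The authors deposited raw counts per gene, without normalization. Of 52550 IDs, 99.7% matched GENCODE M21 without their version, which gave symbols, chromosomes and shared exonic bases on either strand.

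Counts were scaled by TMM (edgeR 4.0.16, R 4.3.3; factors 1.15, 0.845, 1.16 and 0.892), and 0.5 was added. Intervals are normal 95% intervals of the log2 ratio of ratios from Poisson counting error. PCR duplicates are not separate molecules, so intervals and limits from 0 counts cover counting error only. The call limit was 2-fold. Folds against 0 counts used 3 counts in that library and leave out the counting error of the other libraries. The calculation was tested on simulated data. Groups came from the labels, and with 1 sample each no p-value for genotype dependence measures spread between mice.

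The genes, gene lists (21), marker lists (12), alternatives and naming rule were chosen with earlier results of these data known. The rule named, ranked by the interval bound nearest 0, 14 genes in each direction with 4 or more counts in all 4 libraries and 5 CPM in at least 1 library, 4 in each direction with 0 to 3 counts in a library, and 3 in each direction sharing exonic bases. It added 2 genes by mean CPM and 2 by size of the ratio of ratios from each list, and Tnf, Il6, Il1b, Il10, Nos2, Arg1, Hif1a and Vegfa. Provisional gene names are not printed, some genes the rule picked are not reported here, and other called list members are named as members of their count. The alternatives tried were size factors of DESeq2 1.42.0, scaling by total counts, a pseudocount of 5, other filters and fold limits, shared genes included, all chromosomes, thinning, subtraction of resting shares and edgeR's quasi-likelihood test. Subtraction of the lowest WT share was added after seeing the data. Mitochondrial transcripts and mature microRNAs were not analysed here.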

Additional observations from a re-analysis of the deposited data

Results flagged for a closer look

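In 9 named genes the LPS library was 2-fold or more higher than the unstimulated one in one genotype and 2-fold or more lower in the other. With 1 library per group this difference was not tested. Higher with LPS in WT and lower in deficient cells were Mfap3 (log2 ratio of ratios -4.91), Mmp9 (-4.60), F3 (-3.96) and Zfp931 (-3.41). Lower with LPS in WT and higher in deficient cells were Nrros (5.47), Osgin1 (3.76), Rnd2 (8.93), Sla2 (8.44) and Lrrc8d (7.14). Rnd2, Sla2 and Lrrc8d share exonic bases with another gene. Of all called genes without shared exonic bases, 39 went opposite ways, 17 of them called higher and 22 called lower.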

How the results depend on the processing

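No paired analysis was possible because each group held 1 library, and for the same reason no library could be left out. DESeq2 size factors, total counts, a pseudocount of 5, a CPM filter, all chromosomes, thinning to the smallest total and the 3 subtractions of resting shares gave 151 to 212 genes called higher and 281 to 409 called lower, all within 1.5 times of 186 and 329. No filter gave 313 higher. Requiring 20 counts in all 4 libraries gave 110 higher, 89 that differed between genotypes at rest only and 153 with LPS only. Including genes that share exonic bases gave 338 higher, 542 lower, 241 at rest only and 399 with LPS only. A limit of 1.5-fold gave 471, 745, 224 and 408 in the same order, and a limit of 4-fold gave 38, 65, 25 and 37. edgeR's quasi-likelihood test gave 0 higher and 0 lower, with 117 genes at an unadjusted p under 0.05; it takes the genotype difference as spread. Other scalings moved the median ratio of ratios of all genes by at most 0.065. Of 62 named genes called, 61 kept their call with DESeq2 size factors, 60 with total counts, 59 with a pseudocount of 5 and 60 when thinned. Subtracting 1.32% of the WT LPS level from the WT unstimulated library kept 151 higher and 329 lower calls and turned 13 from higher to lower. A subtraction in that library alone cannot raise a ratio of ratios, so calls lower could not be lost. Il12b (-7.68), Ccl5 (-9.03), Nos2 (-9.92), Ptgs2 (-8.45), Rsad2 (-11.86) and Il1b (-10.03) moved from a call higher to a call lower, while Il6 (-3.67) and Cd40 (-1.03) changed sign and lost their call. Apol9a, Apol9b, Fcgr1, Hdc and Il12a lost theirs without a change of sign. By construction the subtraction left 34 of the 67 strongly induced genes at 0 in that library, so these sizes rest on the pseudocount. With each genotype's own share subtracted, 9 named genes lost their call and none was called in the other direction. Of these, Ccl5 (-0.44), Nos2 (-1.72), Ptgs2 (-0.47), Rsad2 (-0.40) and Il1b (-0.047) changed sign with intervals that span 0, and the others were Apol9a, Apol9b, Il12b and Il6. With the lowest WT share subtracted, 168 higher and 329 lower calls were kept and no named call reversed, while Apol9a and Rsad2 lost theirs. Of 55 named genes not called, 4, 4 and 2 became called under the 3 subtractions and 0 under the other scalings, the pseudocount of 5 and thinning. Depth limits genes at a few counts: 10.8% were called under 5 CPM on average, against 4.44% at 50 CPM or more.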

Other observations

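Zinc finger genes with names starting in Zfp, a group chosen after its values were seen, leaned lower. Of 220 tested, 20 (9.09%) were called lower and 5 (2.27%) higher, against 4.16% and 2.35% of all genes, with a median of -0.28. On the X chromosome, which the gene choice leaves out, Tlr7, a receptor for single-stranded RNA, stood at 61.1, 381, 106 and 145 CPM (-2.18), and Pgk1, a glycolytic enzyme, at 331, 1318, 264 and 476 CPM (-1.14), each highest in the WT LPS library. Itgam, an integrin of myeloid cells that shares exonic bases, stood at 966, 397, 291 and 277 CPM (1.21). By autosome, the share of tested genes called ran from 4.69% on chromosome 9 to 9.99% on chromosome 2.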
